A study of Mus musculus with 3 samples.

Results

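The genes described here carry glucose into the cell, break it down to lactate, hand pyruvate to the mitochondria and store or release glycogen. They were taken by symbol from a list of 37 genes, and 36 of them were matched in a table of read counts for 20162 genes. Expression of Aldoc was not analysed here, and this gene enters only the promoter search below. Slc2a3 and Pfkfb1, with at most 10 reads in any library, were too low to be tested, which left 34 of 14478 tested genes.

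The counts come from 3 cultures of C2C12, mouse myoblasts of an established line, which form myotubes once serum is reduced. Each culture was infected with a lentiviral vector for a short hairpin RNA (shRNA), was held in puromycin throughout, and was then differentiated for 7 days in medium with horse serum. The control culture carried a control shRNA (ShSC), and the other 2 carried different shRNAs against Tead4, called shRNA A (ShA) and shRNA B (ShB) here. Tead4 is one of the TEAD transcription factors, and the question was which genes depend on it in differentiated muscle cells. Each shRNA was represented by 1 library of infected cells, and the labels name no repeat culture. A p-value therefore rests on the spread between the 2 different Tead4 shRNAs, combined with a spread estimated over all tested genes. It does not measure variation between repeat cultures.

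Glucose enters muscle through the carriers GLUT1, which works at rest, and GLUT4, which insulin and contraction bring to the surface. Hexokinase traps it as glucose 6-phosphate, which either goes down glycolysis to pyruvate or is built into glycogen, the store that phosphorylase opens during contraction. Many of these steps have a muscle isoform beside a widely expressed one, and differentiating myoblasts are known to switch towards the muscle form.

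Of the 34 tested genes, 3 fell and 0 rose. This is 8.82% against 9.82% of all tested genes called in either direction (edgeR quasi-likelihood test, Benjamini-Hochberg adjusted p under 0.05). The share called was near this background. Those that fell were Hk2, the insulin-responsive hexokinase of muscle, Slc2a1, which codes for the carrier GLUT1, and Eno2, the enolase best known from neurons. In the lower direction the 3 genes stand against 4.48% of all tested genes, and in the higher direction the 0 stands against 5.34%. At an unadjusted p under 0.05, 6 were lower and 2 were higher (Pygb and Pdk3). The share of all tested genes at this unadjusted threshold was not computed, so these counts are a description only. At the adjusted threshold, DESeq2 and limma-voom also called 0 higher. The median log2 fold change of the 34 genes was -0.23, against 0.02 over all tested genes.

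The bases before the transcription start of the 3 genes that fell are shown because these genes lie at the centre of the results. Each run is 250 bases of mouse GRCm38.p6 as given by RefSeq, 5′ to 3′ on the gene's own strand and ending just before the start. Capitals mark ACGTG, the core of the hypoxia response element, or GGAATG, the core that TEAD factors bind, read on either strand.
Hk2, chr6:82774455-82774704, minus strand: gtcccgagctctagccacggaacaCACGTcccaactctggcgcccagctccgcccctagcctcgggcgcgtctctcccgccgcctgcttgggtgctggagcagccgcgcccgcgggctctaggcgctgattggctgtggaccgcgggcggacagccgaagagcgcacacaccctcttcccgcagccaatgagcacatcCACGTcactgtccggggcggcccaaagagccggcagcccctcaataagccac
Slc2a1, chr4:119108495-119108744, plus strand: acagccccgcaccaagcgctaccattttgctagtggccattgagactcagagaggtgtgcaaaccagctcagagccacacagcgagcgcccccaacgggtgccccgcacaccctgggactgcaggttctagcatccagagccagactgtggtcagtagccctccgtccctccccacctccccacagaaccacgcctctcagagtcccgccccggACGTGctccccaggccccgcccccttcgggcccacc
Eno2, chr6:124769674-124769923, minus strand: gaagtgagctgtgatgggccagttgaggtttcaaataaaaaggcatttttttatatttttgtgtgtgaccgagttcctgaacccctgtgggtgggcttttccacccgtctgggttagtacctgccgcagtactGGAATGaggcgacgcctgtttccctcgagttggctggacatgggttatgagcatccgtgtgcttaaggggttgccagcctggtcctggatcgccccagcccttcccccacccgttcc
Hk2 held ACGTG at 2 places, Slc2a1 at 1 place, and Eno2 held GGAATG at 1 place. Windows that also include 50 bases after the start were searched on both strands for 35 of the 37 genes, with Slc2a3 and Slc2a4 unmatched. GGAATG stood in 8 of their 55 windows (14.5%), close to 14.7% of 32851 windows of the same length over all genes. ACGTG stood in 24 of the 55 windows (43.6%), against 19.6% of all windows and 28.5% of the 10841 windows with at least 16 CpG dinucleotides, the median of the set. The E-box CANNTG, which shares the letters CACGTG with the hypoxia core, stood in 72.7% against 72.3%. In the 10841 CpG-rich windows GGAATG stood in 9.33% and CANNTG in 58.1%. Against these windows each motif was thus more frequent in the set, which was itself not restricted to CpG-rich windows. Whether a motif stands near its background therefore depends on the background chosen. A match describes these letters only and does not show a binding site.

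The libraries held 15594305 to 19918954 counted reads, and all values below are counts scaled to library depth (CPM) after TMM scaling (edgeR's trimmed mean of M values) unless another unit is named. Tead4 itself was at 78.2 CPM in the control library, 19.7 under shRNA A and 10.8 under shRNA B, a log2 fold change of -2.35 (SE 0.27, edgeR adjusted p = 2.82e-06). The summed level of 10 myotube markers was 24699 CPM in the control library, 14474 under shRNA A and 17684 under shRNA B, and 4 of them fell (Myh3, Tnnt3, Myog and Ckm). Markers of dividing cells summed to 29.3, 137 and 135 CPM, and 5 of 5 rose. Markers of smooth muscle or fibroblasts summed to 1751, 4099 and 3159 CPM, and 3 of the 6 tested rose. Of 7 markers of undifferentiated myoblasts, which summed to 334, 407 and 431 CPM, 3 rose and 1 fell. Of the fat, bone, liver and brain markers, 1 of 4, 2 of 4, 4 of 4 and 2 of 3 were matched in the counts. Each of these lists summed to under 1 CPM in each library. Their part in the results below was not tested. In bulk RNA, fewer myotubes and less RNA of a gene per myotube cannot be told apart.

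Both shRNA libraries are compared with the same control library, so agreement between them is not an independent repeat. Their ratios to it carry 95% exact (Clopper-Pearson) intervals, which cover counting error only. In the 34 tested genes, 18 were below the control library with both shRNAs, 10 were above it with both, and 6 lay on opposite sides. The same joint counts over all tested genes were not computed. Taken singly, 22 of the 34 were below it under shRNA A and 20 under shRNA B. Over all 14478 tested genes, 7184 and 6988 were. Past 1.5-fold, with an interval excluding no change, 10 genes were lower under shRNA A (29.4%, against 12.8% of all tested genes) and 4 under shRNA B (11.8%, against 10%). The same 4 genes were past 1.5-fold lower with both, against 7.03% of all tested genes: Hk2, Slc2a1, Slc2a4 and Eno2. Past 2-fold, 2 were lower under shRNA A (against 5.88% of all tested genes), 3 under shRNA B (4.74%) and 1, Hk2, with both (3.1%), and 0 were higher under shRNA A, shRNA B or both (8.7%, 6.41% and 4.63%). The 1.5-fold count under shRNA A depends on the scaling and was 6 with upper-quartile scaling or library totals. With shRNA A, 3 genes were past 1.5-fold higher (Pfkfb2, Pdk3 and Pygb), against 16% of all tested genes. With shRNA B there were 0, against 12.1%, and 0 were past it with both, against 8.99%.

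**Figure D1:**
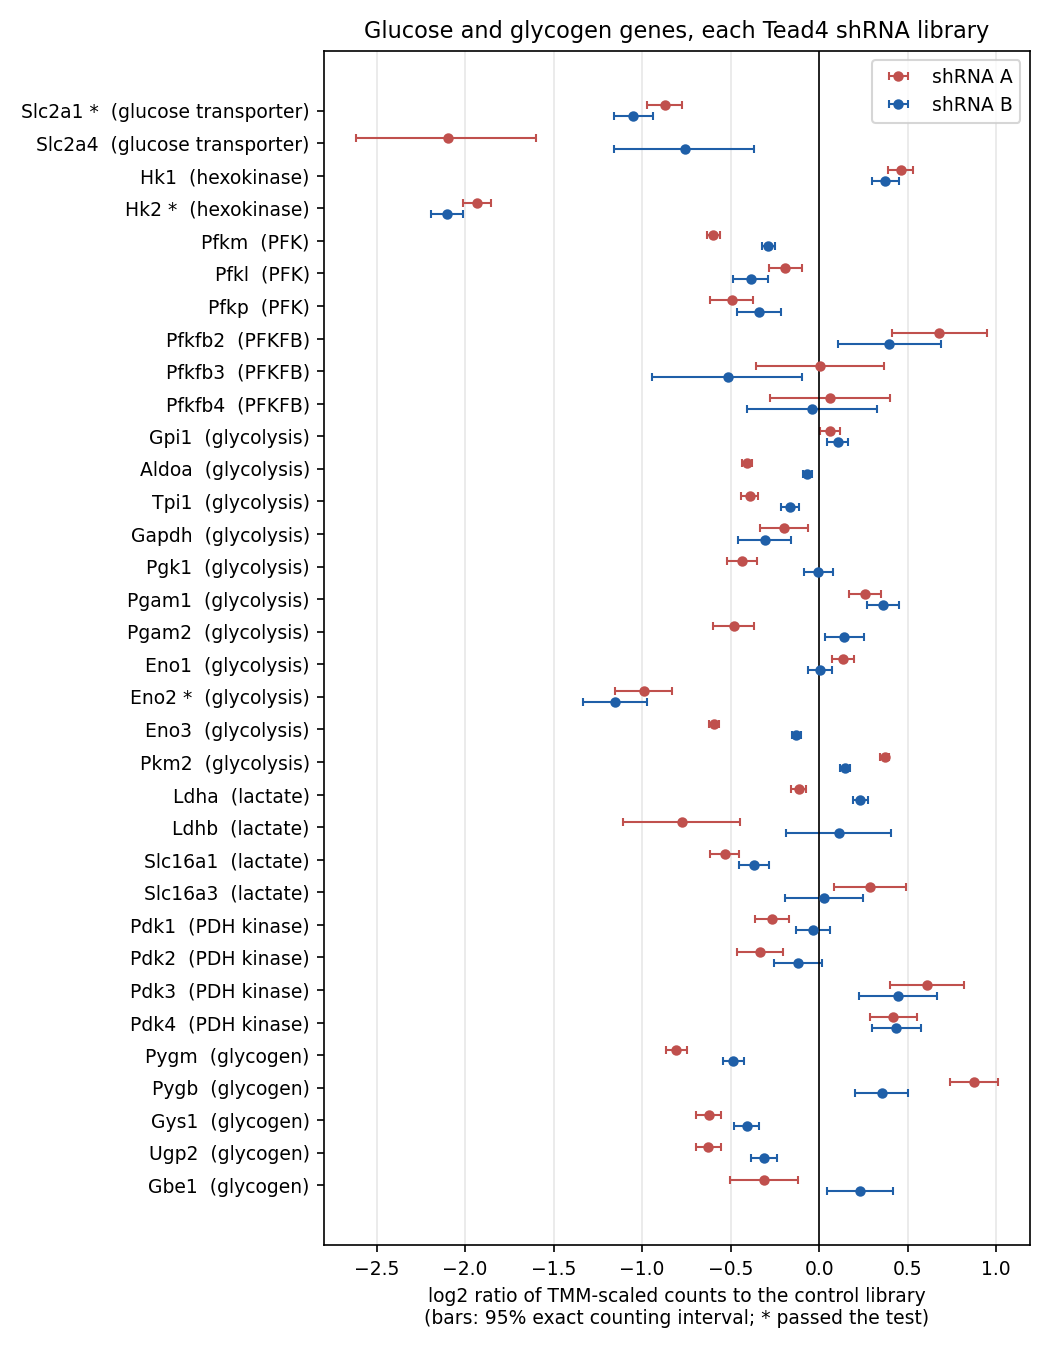
Log2 ratio of TMM-scaled counts to the control library for the 34 tested genes, shRNA A in red and shRNA B in blue, with 95% exact counting intervals as bars and an asterisk on the 3 genes that passed the test. Hk2 lies near -2 with both shRNAs, and Slc2a1 and Eno2 lie near -1, while most other genes lie within 0.6 of no change in at least 1 library.

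Of the 2 tested glucose carriers 1 fell, Slc2a1, and 0 rose. It was at 126 CPM in the control library, 68.9 under shRNA A and 61.0 under shRNA B. Both shRNA libraries thus held 54.6% and 48.3% of the control level, with a log2 fold change of -0.96 (SE 0.21, edgeR adjusted p = 0.00505). Slc2a4, which codes for the insulin-responsive carrier GLUT4, was read far less, at 9.34, 2.19 and 5.52 CPM (150, 44 and 87 reads). It was lowest under shRNA A, and the log2 ratios were -2.09 (interval -2.61 to -1.60) and -0.76 (-1.16 to -0.37). Its log2 fold change of -1.29 (SE 0.42) did not pass the edgeR test (adjusted p = 0.0560), nor DESeq2 (0.328), but it was called by limma-voom (0.0183), by the newer quasi-likelihood method (0.0403) and without the filter on low counts (0.00556). Corrected for transcript length, Slc2a1 made up 91.2% of the RPKM (CPM per kilobase of transcript) of Slc2a1, Slc2a3 and Slc2a4 in the control library, 95.5% under shRNA A and 89.3% under shRNA B. The summed level of these 3 carriers went from 42.4 RPKM to 22.1 and 20.9. Slc2a6, a carrier given further below, is outside this sum, and at 153 CPM in the control library it was read more than Slc2a1. Slc2a3, a high-affinity carrier, had 2, 10 and 3 reads.

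Of the hexokinases, which trap glucose in the cell, Hk2 fell and Hk1 did not pass the test. Hk2 was at 332 CPM in the control library, 86.9 under shRNA A and 77.2 under shRNA B, so that 26.2% and 23.3% of the control level remained. This was the lowest fold change of the 34 genes (log2 -2.02, SE 0.22, edgeR adjusted p = 1.58e-06), and the 2 shRNA libraries lay closer to each other than to the control library. Hk1, the form found in nearly all tissues, was at 159, 218 and 205 CPM, and its log2 fold change of 0.42 (SE 0.23, adjusted p = 0.318) did not pass the test. Hk2 supplied 67.7% of hexokinase reads in the control library (95% exact interval 66.6 to 68.7), 28.5% under shRNA A (27.3 to 29.6) and 27.3% under shRNA B (26.0 to 28.7). Corrected for length, Hk2 changed from the more abundant hexokinase (60.2 against 37.1 RPKM) to the less abundant one, at 15.8 against 51.0 RPKM under shRNA A and 14.0 against 48.0 under shRNA B. The sum of both hexokinases was 97.3 RPKM in the control library, 66.8 under shRNA A and 62.0 under shRNA B.

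**Figure D2:**
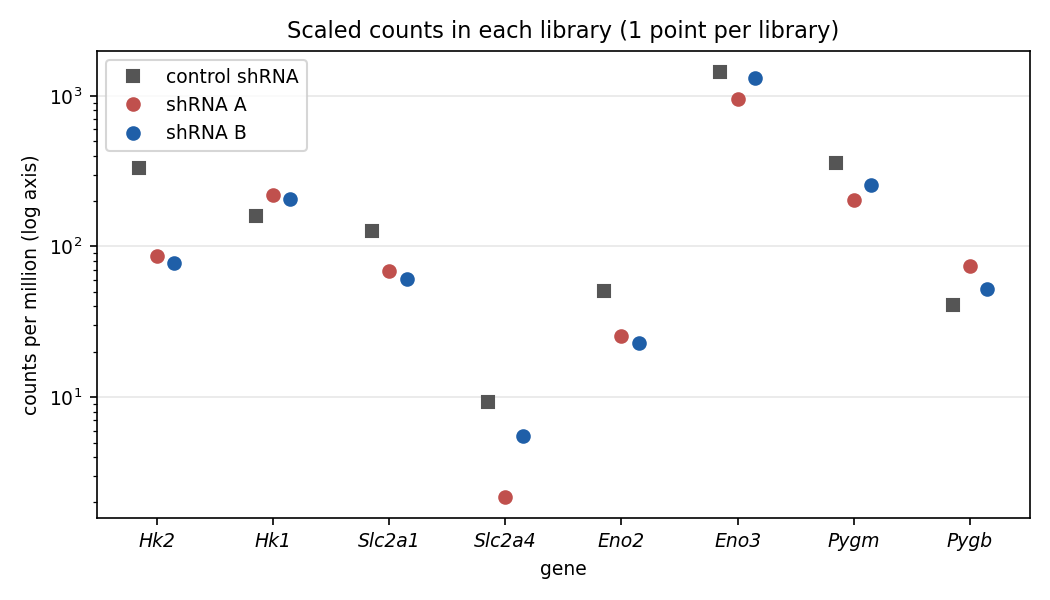
CPM on a log axis in each library, 1 point per library, for the 3 genes that fell and 5 related isoforms: control in grey squares, shRNA A in red and shRNA B in blue. Hk2, Slc2a1 and Eno2 have both shRNA points close together and well below the control point, while Hk1 and Pygb have both above it.

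Phosphofructokinase, the main control point of glycolysis, had 0 of 3 genes called and a median log2 fold change of -0.41. Pfkm, the muscle subunit, was at 790 CPM in the control library, 522 under shRNA A and 647 under shRNA B (log2 fold change -0.43, SE 0.24, edgeR adjusted p = 0.322). All 3 subunits were below the control library with both shRNAs, and Pfkm kept 84.9%, 82.0% and 85.6% of the RPKM of the step. Pfkl, the liver subunit, had log2 ratios of -0.19 and -0.39, and Pfkp, the platelet subunit, -0.49 and -0.34, where 16.6% of the Pfkp transcript is shared with its neighbour Pitrm1.

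The bifunctional enzymes that set the level of fructose 2,6-bisphosphate, an activator of phosphofructokinase, summed to 6.67, 8.14 and 6.76 RPKM. Of the 3 tested, 0 were called. Pfkfb2 was at 10.9 CPM in the control library, 17.4 under shRNA A and 14.3 under shRNA B, with log2 ratios of 0.67 and 0.40 (adjusted p = 0.282). Pfkfb3 had log2 ratios of 0.00 and -0.52 and Pfkfb4 of 0.06 and -0.04, and Pfkfb1, the liver and muscle form, had 10, 9 and 5 reads.

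Among the isomerase gene Gpi1 and the glycolysis genes from aldolase to pyruvate kinase, 1 of 11 fell, and the median log2 fold change was -0.21. That gene was Eno2, at 50.9 CPM in the control library, 25.6 under shRNA A and 22.9 under shRNA B. The log2 fold change was -1.07 (SE 0.23, edgeR adjusted p = 0.00333), with log2 ratios of -0.99 (interval -1.15 to -0.83) and -1.15 (-1.33 to -0.97). Eno2 was a minor enolase even in the control library, with 1.74% of the enolase RPKM, against 1.24% and 0.855% with the shRNAs. Eno3, the muscle enolase, supplied 87.9%, 82.6% and 87.8% when reads of the near-identical copies of Eno1 are left out, and was at 1440, 954 and 1316 CPM. Its log2 fold change was -0.34 and did not pass the test (SE 0.25, adjusted p = 0.490). Its value under shRNA B was within 10% of the control level, while shRNA A gave a log2 ratio of -0.59.

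The most abundant transcript per length was that of Aldoa, the aldolase of muscle, at 995, 750 and 949 RPKM, with a log2 fold change of -0.23 that did not pass the test. Tpi1, triose phosphate isomerase, had log2 ratios of -0.39 and -0.16, and Gpi1, glucose 6-phosphate isomerase, 0.06 and 0.10. Pgam2, the muscle phosphoglycerate mutase, was at 78.2 CPM in the control library, 55.9 under shRNA A and 86.2 under shRNA B, so that the 2 shRNAs lay on opposite sides of the control. Pgam1, its widely expressed partner, was at 107, 128 and 137 CPM, above the control with both shRNAs but not called (adjusted p = 0.479). Pkm2, the symbol in the table for the muscle pyruvate kinase gene, was at 1235, 1597 and 1368 CPM (log2 fold change 0.26, adjusted p = 0.619). These counts are per gene and do not separate the M1 and M2 splice forms.

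Several of these genes have near-identical processed copies in the genome, and how the authors' counting split reads between them is not given in the sources used here. Of all 72-base stretches of the transcript, the read length, 80.6% in Gapdh, 67.6% in Pgk1, 66.3% in Eno1 and 40.7% in Pgam1 also occur in another gene's transcript. The share was 0% in Hk2, Eno2, Eno3, Slc2a4, Pfkm, Pgam2, Pygm and Pygb, and 1.07% in Slc2a1, from an antisense gene whose reads cannot be separated without strand. The copy Eno1b had 6564, 10625 and 6813 reads, more than Eno1 itself (3544, 4868 and 3488). With the reads of copies added, an alternative chosen after the data were seen, the log2 ratios of Eno1, the widely expressed enolase, went from 0.13 and 0.00 to 0.31 and 0.06. Those of Pgk1, phosphoglycerate kinase, went from -0.44 and -0.01 to -0.28 and -0.09. Those of Gapdh, glyceraldehyde 3-phosphate dehydrogenase, went from -0.20 and -0.31 to -0.08 and -0.25. Eno3 made up 86.7%, 79.8% and 85.6% of the reads of Eno3 and Eno1, but 58.6%, 43.1% and 55.4% once the reads of copies were counted with Eno1. The copies added were Eno1b and Gm4735 (6203, 9818 and 6407 reads), and a read counted at both would enter this sum more than once. The same holds for the Gapdh sum, where the copy Gm12033 (836, 918 and 653 reads) was close to Gapdh itself (845, 923 and 670). The values of Gapdh, Pgk1, Eno1 and Pgam1, and the shares of a step that rest on them, are therefore uncertain. Smaller shares of the transcript occur in another gene for Pfkfb2 (24.4%), Pkm2 (21.2%), Ldhb (17.7%), Pfkp (16.6%) and Gpi1 (15.8%). Their values carry the same limit.

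Lactate production and export had 0 of 4 genes called. Ldha, the lactate dehydrogenase subunit that favours lactate, was at 572 CPM in the control library, 527 under shRNA A and 672 under shRNA B. The shRNAs lay on opposite sides of the control library, and Ldha held 97.3%, 98.2% and 97.5% of the RPKM of Ldha and Ldhb. Ldhb, the heart subunit, had log2 ratios of -0.78 and 0.11 on 186, 136 and 197 reads. Slc16a1, the carrier MCT1 that moves lactate in either direction, was at 156, 108 and 121 CPM (log2 fold change -0.45, adjusted p = 0.243), and Slc16a3, the exporter MCT4, at 20.9, 25.5 and 21.3 CPM. The Slc16a3 to Slc16a1 read ratio was higher with both shRNAs, by 0.82 (interval 0.60 to 1.04) and 0.40 (0.16 to 0.64) on the log2 scale.

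The pyruvate dehydrogenase kinases, which hold back the oxidation of pyruvate in mitochondria, had 0 of 4 genes called, and their summed level was 69.1, 69.3 and 74.3 RPKM. Within that sum the members differed. Pdk4, the kinase induced by fasting, was at 47.0 CPM in the control library, 62.7 under shRNA A and 63.5 under shRNA B (log2 fold change 0.43, edgeR adjusted p = 0.280). Pdk3 was at 18.4, 28.0 and 25.0 CPM (log2 fold change 0.53, adjusted p = 0.213). Pdk1 had log2 ratios of -0.26 and -0.04 and Pdk2 of -0.33 and -0.12, so Pdk3 and Pdk4 were above the control with both shRNAs and Pdk1 and Pdk2 below it, without any of them passing the test.

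Of the 5 glycogen genes 0 were called, with a median log2 fold change of -0.46. Pygm, the muscle glycogen phosphorylase, was at 356 CPM in the control library, 203 under shRNA A and 254 under shRNA B. Both were below the control, by log2 ratios of -0.81 and -0.49, but the fold change did not pass the test (log2 -0.64, SE 0.24, edgeR adjusted p = 0.0952). Pygb, the brain phosphorylase, was at 40.6, 74.4 and 51.8 CPM, above the control with both, and did not pass it either (log2 fold change 0.64, SE 0.25, adjusted p = 0.115). Gys1, the muscle glycogen synthase, was at 233, 151 and 175 CPM (log2 fold change -0.51, adjusted p = 0.182). Ugp2, which makes UDP-glucose for the synthase, had log2 ratios of -0.63 and -0.31. Gbe1, the branching enzyme, had -0.31 and 0.23 and a fold change whose sign depends on the scaling (-0.02, against 0.02 with upper-quartile scaling and 0.03 with library totals).

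**Figure D3:**
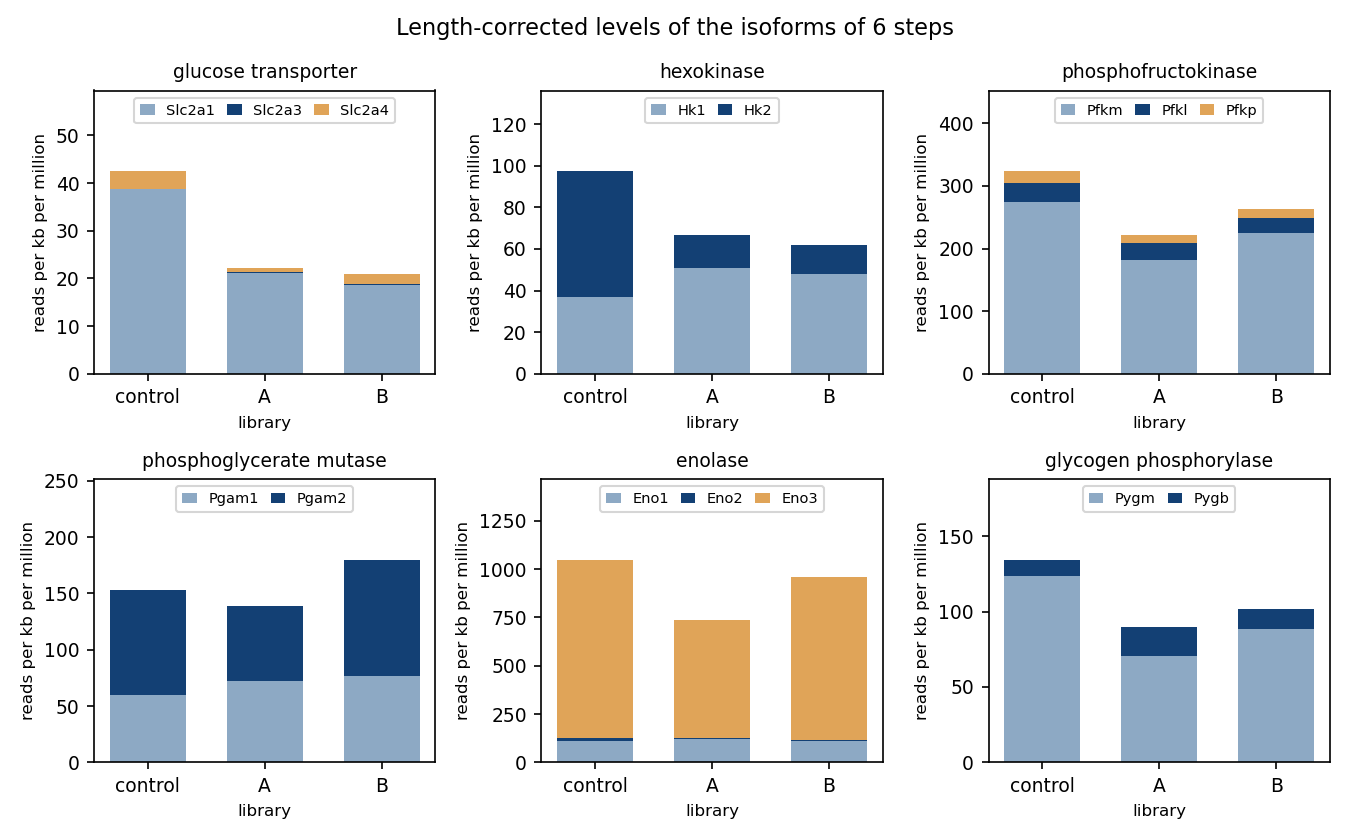
Stacked length-corrected levels (RPKM, bars from 0) of the isoforms of 6 steps in each library, in the order control, A and B. The hexokinase bar changes its make-up most visibly, from 61.9% Hk2 to 23.6% and 22.6%. The glucose transporter bar, which holds Slc2a1, Slc2a3 and Slc2a4 only, is lower in both shRNA libraries at 22.1 and 20.9 against 42.4.

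Muscle isoforms were then set against the widely expressed isoform of the same step, in 6 pairs. The read ratio of 2 genes within a library needs no scaling between libraries, and gene length cancels. With shRNA A the ratio of muscle to widely expressed isoform was lower than in the control library in 6 of 6 pairs, and each 95% exact conditional interval lay below 0 (median log2 change -0.98). With shRNA B it was lower in 4 of 6 pairs, with intervals below 0 in those 4 and above 0 in 0 pairs (median -0.18). With 3 libraries the smallest p an exact permutation test can give is 0.333, so these changes carry no test over libraries. Of 3 further pairs, 2 went the other way. Ldha to Ldhb was higher by 0.66 (0.33 to 0.99) under shRNA A, with 0.12 (-0.18 to 0.42) under shRNA B, and Slc16a3 to Slc16a1 was higher under both, as given above. Pfkfb1 to Pfkfb3, with at most 10 reads of Pfkfb1 in a library, gave -0.48 (-2.00 to 1.03) and -0.46 (-2.41 to 1.29). The muscle form was thus not lower in every step measured.

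The Hk2 to Hk1 ratio was the furthest from the control, at a log2 change of -2.39 (interval -2.50 to -2.29) under shRNA A and -2.48 (-2.60 to -2.36) under shRNA B. Pygm to Pygb followed, at -1.68 (-1.83 to -1.53) and -0.84 (-1.0 to -0.68), so that Pygm went from 92.3% of the phosphorylase RPKM to 78.8% and 87.0%. The intervals of the 2 shRNAs overlapped for the hexokinases and did not for the phosphorylases. Pgam2 to Pgam1 differed by -0.74 (-0.89 to -0.59) and -0.22 (-0.36 to -0.07), and Eno3 to Eno1 by -0.73 (-0.80 to -0.66) and -0.13 (-0.21 to -0.06). The ratio of Eno3 to the sum of Eno1 and Eno2 was -0.57 under shRNA A and 0.02 under shRNA B, so the small shift under shRNA B depends on the partner. Adding the reads of copies to Eno1 and Pgam1, where a read may count more than once, gave -0.90 and -0.19 for the enolases. For the mutases it gave -0.81 and -0.16.

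The remaining pairs were lower under shRNA A and not under shRNA B. Pfkm to Pfkl differed by -0.41 (-0.51 to -0.31) and 0.10 (-0.01 to 0.21). Slc2a4 to Slc2a1 differed by -1.22 (-1.75 to -0.72) and 0.29 (-0.12 to 0.70), where both carriers were below the control under shRNA B. As a group the 6 muscle isoforms had a median log2 fold change of -0.54 (-0.70 under shRNA A, -0.39 under shRNA B) and the 6 widely expressed isoforms 0.19 (0.20 and 0.18), against 0.02 over all tested genes. Each group held 1 gene that fell, Hk2 and Slc2a1. The summed myotube markers were lowest under shRNA A too, and their part in the ratios was not tested.

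**Figure D4:**
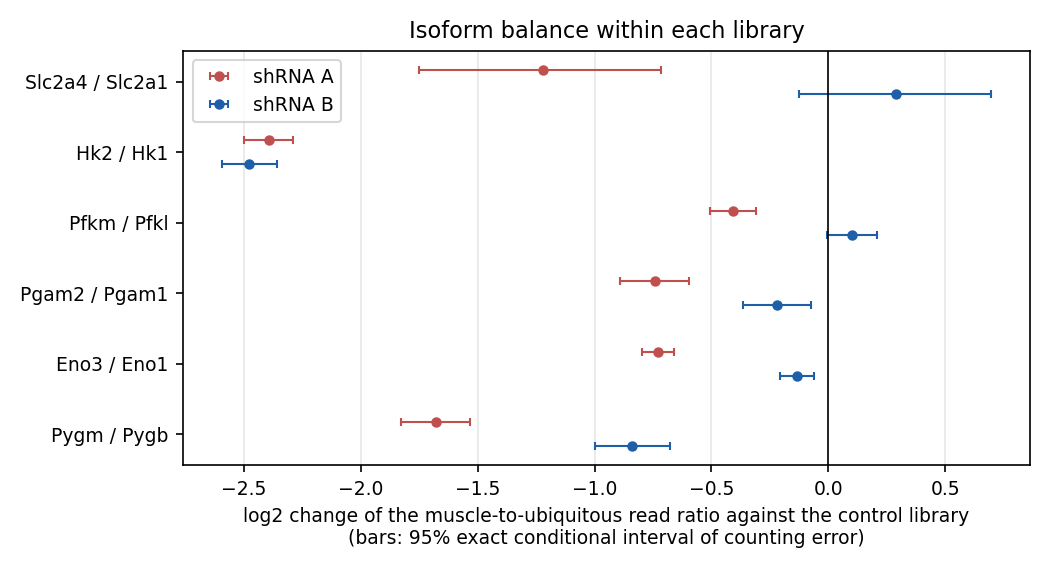
Log2 change of the muscle to widely expressed isoform read ratio against the control library in 6 pairs, shRNA A in red and shRNA B in blue, with 95% exact conditional intervals. The 3 further pairs are not drawn, of which Ldha to Ldhb under shRNA A (0.66) and Slc16a3 to Slc16a1 (0.82 and 0.40) lie above 0. All 6 points of shRNA A drawn here lie below 0, and those of shRNA B range from -2.48 for the hexokinases to 0.29 for the glucose carriers.

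Other genes of glucose metabolism were taken from lists of 105 symbols, of which 82 were tested. Those that passed the test were 7 that fell and 4 that rose, and the median log2 fold change over the 82 was -0.09. That is 8.54% lower and 4.88% higher, against 4.48% and 5.34% of all tested genes. The share that rose was near the background and the share that fell was above it, a difference that was not tested. The lists were chosen with earlier results of these data known. The lists below are short, and their counts are given as descriptions. Of 20 tested glycogen genes, 3 fell and 0 rose. Ppp1r3c, with 17, 54 and 74 reads, did not pass the test at a log2 fold change of 1.79 (edgeR adjusted p = 0.0559). Stbd1, which tethers glycogen to membranes, was at 237 CPM in the control library, 53.1 under shRNA A and 66.4 under shRNA B, which gave a log2 fold change of -1.99 (SE 0.22, edgeR adjusted p = 2.01e-06). Its levels with both shRNAs were under 30% of the control, a fall about as large as that of Hk2. Gyg, glycogenin, the protein on which glycogen chains are started, was at 267, 113 and 167 CPM (-0.93, SE 0.24, adjusted p = 0.0159). Phkg2, a catalytic subunit of phosphorylase kinase, was at 23.3, 12.2 and 11.4 CPM (-0.98, SE 0.26, adjusted p = 0.0158).

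Among other transporters and isozymes 1 of 10 tested genes fell, Slc2a6, which codes for the carrier GLUT6. It was at 153 CPM in the control library and at 54.8 and 85.3 CPM with the shRNAs (-1.13, SE 0.24, edgeR adjusted p = 0.00334). The hexosamine pathway, which turns fructose 6-phosphate into UDP-N-acetylglucosamine, had 2 of 7 genes that fell. Uap1, which catalyses the last step, was at 87.1, 47.4 and 40.7 CPM (-0.98, SE 0.22, adjusted p = 0.00433), and Gnpnat1, the acetyltransferase, at 32.8, 15.7 and 19.0 CPM (-0.92, SE 0.24, adjusted p = 0.0153). Of 7 genes of the glycerol phosphate and malate shuttles 1 fell, Got1, the cytosolic aspartate aminotransferase, at 194, 97.7 and 111 CPM (-0.89, SE 0.22, adjusted p = 0.0102).

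In the pentose phosphate pathway, which makes NADPH and ribose, 2 of 9 genes rose and 0 fell. G6pdx, glucose 6-phosphate dehydrogenase, its entry step, was at 21.1 CPM in the control library, 41.4 under shRNA A and 36.1 under shRNA B (0.88, SE 0.25, edgeR adjusted p = 0.0247). Its retrogene copy G6pd2 was at 6.35, 13.0 and 12.4 CPM (1.0, SE 0.32, adjusted p = 0.0487), and reads of these 2 near-identical genes may not have been told apart. In glucose sensing and GLUT4 traffic 2 of 19 genes rose. Irs1, an adaptor of the insulin receptor, was at 73.2, 192 and 149 CPM, and Txnip, a glucose-induced protein known to lower glucose uptake, at 5.48, 103 and 79.3 CPM. Pyruvate dehydrogenase and pyruvate entry had 0 of 10 genes called, with a median of -0.24. The calls of Phkg2, Gnpnat1, G6pdx and G6pd2 ended with DESeq2, at adjusted p-values of 0.120, 0.108, 0.0924 and 0.238.

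**Figure D5:**
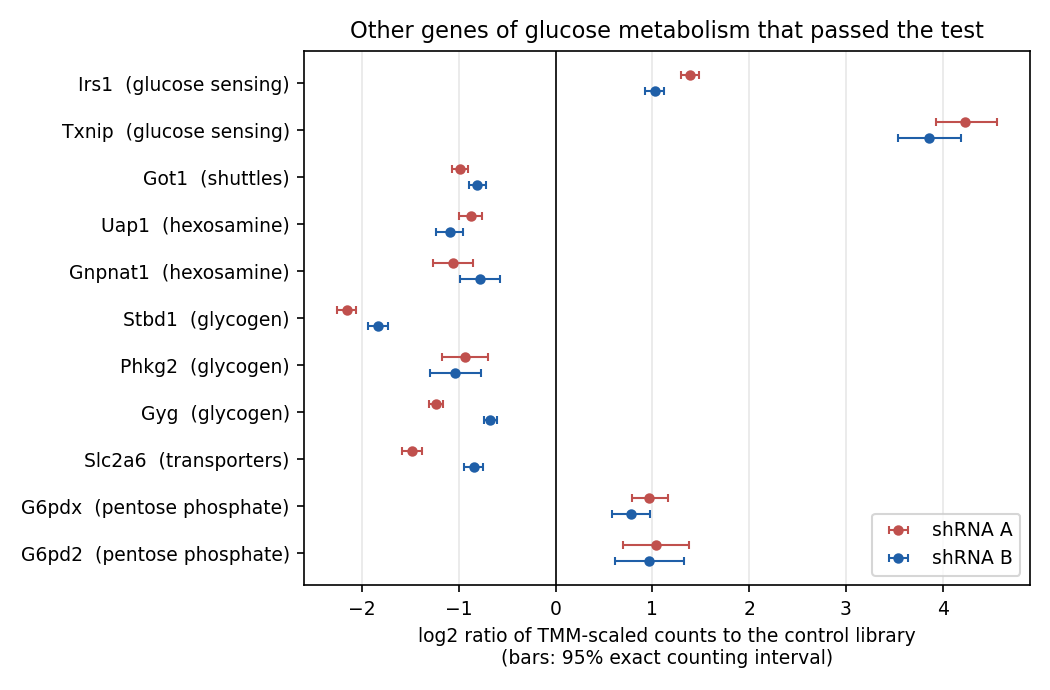
Log2 ratio of TMM-scaled counts to the control library for the 11 other genes of glucose metabolism that passed the test, shRNA A in red and shRNA B in blue, with 95% exact counting intervals. Stbd1 lies near -2 with both shRNAs, and Txnip lies near 4.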

How the data were processed

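Polyadenylated RNA was sequenced as single-end 72-base reads from a kit that does not mark strand, per the labels' protocols. The table deposited by the authors holds raw counts of reads by gene and library, and a normalized value, a score equal to the count times 1 factor per library, rounded, which was not used for tests. Cufflinks 0.8.2, TopHat 1.0.12, DESeq and the build mm9 appear in the submitters' processing notes, without a role. The counting program is not given in the sources used here.

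Counts were tested with edgeR 4.0.16 in R 4.3.3: filterByExpr, TMM factors of 0.979 to 1.01, the quasi-likelihood F test of 2 Tead4 shRNA libraries against 1 control library, and Benjamini-Hochberg adjustment over 14478 genes at 0.05. This leaves 1 residual degree of freedom, and the control library is assumed to vary like the others. The spread of each gene was drawn towards that of all tested genes, with a median of 20.9 prior degrees of freedom. The common dispersion, which edgeR expresses as a biological coefficient of variation, was 16.4%. It rests on the 2 different Tead4 shRNAs and does not measure variation between repeat cultures. SE is the absolute log2 fold change over the square root of F. The code of the test was checked on simulated counts drawn with the fitted dispersions, which cannot check the assumption about the control library. DESeq2 1.42.0, limma-voom (limma 3.58.1), the newer quasi-likelihood method, other scalings and no filter were alternatives. Exact intervals came from SciPy 1.17.1. RPKM used the longest coding transcript of a GENCODE annotation of GRCm38, not the authors' build.

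The genes and lists were chosen with earlier results of these data known. Values per library were given for genes called, both genes of each isoform pair, the most read gene of each role, and up to 3 called genes of each other list. Protein sequences were not used here.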

Additional observations from a re-analysis of the deposited data

How the results depend on the processing

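Hk2, Slc2a1 and Eno2 were called in the main analysis and under each of the 8 alternatives with a test (RLE and upper-quartile scaling, library totals, no filter, the newer quasi-likelihood method, DESeq2, limma-voom, and reads of copies added), with adjusted p-values of 2.74e-16 to 5.06e-05, 0.000604 to 0.0119 and 0.000322 to 0.0157. The glucose transporters called were 2 rather than 1 with no filter, the newer method and limma-voom, through Slc2a4. DESeq2 called 2 of the other genes higher in place of 4, and G6pd2 also lost its call with RLE scaling, the newer method and limma-voom. Ppp1r3c gained a call as higher with library totals, no filter and the newer method, and Irs2 with no filter. Gfpt1 gained a call as lower with no filter and the newer method. The median of the 6 widely expressed isoforms was 0.23 with upper-quartile scaling, 0.24 with library totals and 0.25 with copies added. No scaling moved the median of all genes by over 0.1.

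Lower under shRNA A past 2-fold were 2 genes, and 6 past 1.5-fold with upper-quartile scaling or library totals. Higher past 2-fold were 0. Gbe1 turned from -0.019 to 0.020 (upper-quartile) and 0.027 (library totals). With both shRNA libraries summed, the isoform ratios changed by -0.41 for Slc2a4, -0.18 for Pfkm, -0.48 for Pgam2, -0.45 for Eno3 and -1.32 for Pygm. Against the sum of the other isoforms, shRNA A gave -0.30 for Pfkm and -0.57 for Eno3, and shRNA B gave 0.024 for Eno3. Copies added, where a read may count more than once, gave -0.90 for Eno3 under shRNA A. The cause of these shifts was not tested, apart from those built into the alternative. Leaving out 1 shRNA library leaves 1 library a group and no test, with medians of -0.70 to -0.39 for the muscle isoforms and 0.18 to 0.20 for the others. No paired analysis was possible because there was only 1 control library and the labels give no replicate numbers. For Slc2a4, at 44 to 150 reads, the counting intervals of the shRNAs (-2.61 to -1.60 and -1.16 to -0.37) did not overlap.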
